A study of Mus musculus with 15 samples.

Results

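Tumor-associated macrophages (TAMs) carry C-type lectins of the Clec family on their surface, and 10 of these genes were followed here: Clec4a1, Clec4a2, Clec4a3, Clec4d, Clec4e, Clec4n, Clec7a, Clec12a, Clec5a and Clec2d. They were chosen by symbol, each matched 1 of the 55335 genes of the expression table, and all 10 passed the minimum of a mean of 1 FPKM over the samples that 11419 genes passed, Clec4n (under 1 FPKM in every control sample) only through the miRNA groups. FPKM is a level scaled to the length of the transcript and to the number of mapped fragments, so levels of different genes can be set side by side. The TAMs were sorted by flow cytometry from tumors that Hepa1-6 cells, a mouse hepatoma line, had formed in the liver of C57BL/6 mice. In the control group the tumor cells had received a control lentivirus, in the miR-144 group a lentivirus overexpressing miR-144, and in the miR-451a group a lentivirus overexpressing miR-451a. The miRNAs were therefore overexpressed in the cancer cells of 1 line and not by design in the macrophages, and all samples came from tumor-bearing mice that the labels call untreated. Each group held 5 samples, numbered 1 to 5 in their labels. The age of the mice, and whether a sample was 1 mouse or a pool, are not given in the sources used here, so p-values measure the spread between these samples.

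C-type lectins are receptors of myeloid cells that bind sugars, lipids and other ligands of microbes and of dying cells. Activating members signal through an ITAM, a tyrosine motif that recruits the kinase Syk. Dectin-1 (Clec7a) carries a motif of this kind itself, Dectin-2 (Clec4n), MCL (Clec4d) and Mincle (Clec4e) use the Fc receptor gamma chain, and MDL-1 (Clec5a) uses DAP12. Syk acts through protein kinase C delta on a complex of CARD9, BCL10 and MALT1, which activates NF-κB. DCIR (Clec4a2) and MICL (Clec12a) hold the inhibitory counterpart, an ITIM, which recruits the phosphatases SHP-1 and SHP-2. Clec2d is the ligand of an inhibitory receptor of natural killer cells.

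The mature sequences of the overexpressed miRNAs define the treatments, and the labels do not say which arm of miR-144 was meant, so both are shown. They are RefSeq entries on GRCm38.p6, written 5′ to 3′ with the seed (bases 2 to 8) in capitals. The miR-144 arms lie at chr11:78073010-78073032 and chr11:78073047-78073066 and miR-451a at chr11:78073186-78073207, all on the plus strand. The 3 seeds differ from each other.
mmu-miR-144-5p: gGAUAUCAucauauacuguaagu
mmu-miR-144-3p: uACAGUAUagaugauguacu
mmu-miR-451a: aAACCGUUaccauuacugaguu

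The depth implied by the steps between low values was 15.5 to 30.3 M fragments per sample, and no pair of samples in a group shared more than 0.0963% of its values over the 11419 genes. The cells matched their label: the 6 macrophage markers were present in every sample, with a summed level of 2046 to 2167 FPKM in control, 2201 to 2328 with miR-144 and 2191 to 2332 with miR-451a. Within this sum the genes moved in both directions, without overlap with control. Cd68 was lower, at 1378 to 1504 FPKM in control, 882 to 943 with miR-144 and 835 to 976 with miR-451a. Adgre1, Itgam, Csf1r, Mertk and Fcgr1 were higher in both miRNA groups. Adgre1 went from 131 to 141 FPKM in control to 334 to 394 and 336 to 380 FPKM, and Fcgr1 from 16.6 to 20.4 to 115 to 135 and 113 to 129 FPKM. The hepatocyte and hepatoma genes Alb, Apoa1 and Ttr, the T cell genes Cd3e and Cd3g, the NK cell genes Ncr1 and Gzma and the Kupffer cell gene Clec4f were listed at 0 in all 15 samples. Other marker sums moved with the groups. The 5 Kupffer cell genes summed to 3.30 to 3.77 FPKM in control against 17.1 to 50.1 and 16.0 to 47.3 in the miRNA groups, which was nearly all Cd5l. For the 4 monocyte genes the sums were 3.64 to 5.32, 9.63 to 14.8 and 9.64 to 13.5 FPKM, with Ly6c2 at 0 to 0.0308 FPKM in control and no higher than 0.403 FPKM in any sample. The 6 neutrophil genes summed to 65.0 to 79.2 FPKM in control, 46.2 to 52.2 with miR-144 and 44.1 to 53.2 with miR-451a, nearly all of it Csf3r. For the B cell genes the ranges were 0.138 to 0.375, 1.11 to 1.45 and 1.17 to 1.73 FPKM, and for the endothelial genes 2.72 to 3.39, 3.53 to 4.52 and 3.45 to 5.38 FPKM. The NK cell sums were 0.192 to 0.416, 0.0887 to 0.168 and 0.0323 to 0.137 FPKM and the mast cell and basophil sums 0.125 to 0.437, 0.457 to 1.67 and 0.716 to 1.21 FPKM, neither with overlap between control and the miRNA groups. The T cell, dendritic cell and hepatocyte sums were at or below 0.819 FPKM. Those of dendritic cells were 0.310 to 0.477 FPKM in control, 0.521 to 0.754 with miR-144, without overlap, and 0.452 to 0.819 with miR-451a, with overlap. The part of these cell types in the lectin results was not tested. In sorted but bulk samples, fewer cells with a transcript and less of it per cell cannot be told apart.

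The first comparison asked whether the lectins of TAMs differed when the tumor cells overexpressed either miRNA. Clec4n entered the test only through the miRNA groups and is left out of these counts. With miR-144, 8 of the other 9 lectins were higher than control and 1, Clec7a, was lower. With miR-451a, 7 were higher, Clec7a was lower and Clec4a3 did not pass the test. The test was limma on log2(FPKM + 1) with Benjamini-Hochberg adjustment over 11419 genes and a threshold of 0.05, and differences on this scale understate the change of low genes. Change was common among all genes: 47.1% were called higher and 20.1% lower with miR-144, and 48.1% higher and 20.3% lower with miR-451a. The median difference of the 9 lectins was 1.10 (miR-144) and 0.99 (miR-451a), against 0.13 and 0.14 over all genes. Without any overlap between the 5 samples of each group, 6 of the 9 were higher and 1 lower in either comparison, beside 37.9% and 16.0% of all genes with miR-144 and 38.8% and 16.4% with miR-451a. Both comparisons share the 5 control samples. The share of higher among all called genes was 70.1% (miR-144) and 70.3% (miR-451a), and it moved to 50.01% and 49.6% when every sample was centred on its median, to 52.3% and 52.3% after quantile normalization, and to 76.5% and 77.3% when FPKM was rescaled to TPM. Changes are thus read against the median shift, and only Clec4a3 and Clec2d lay close enough to it for a call to depend on the scaling.

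**Figure D1:**
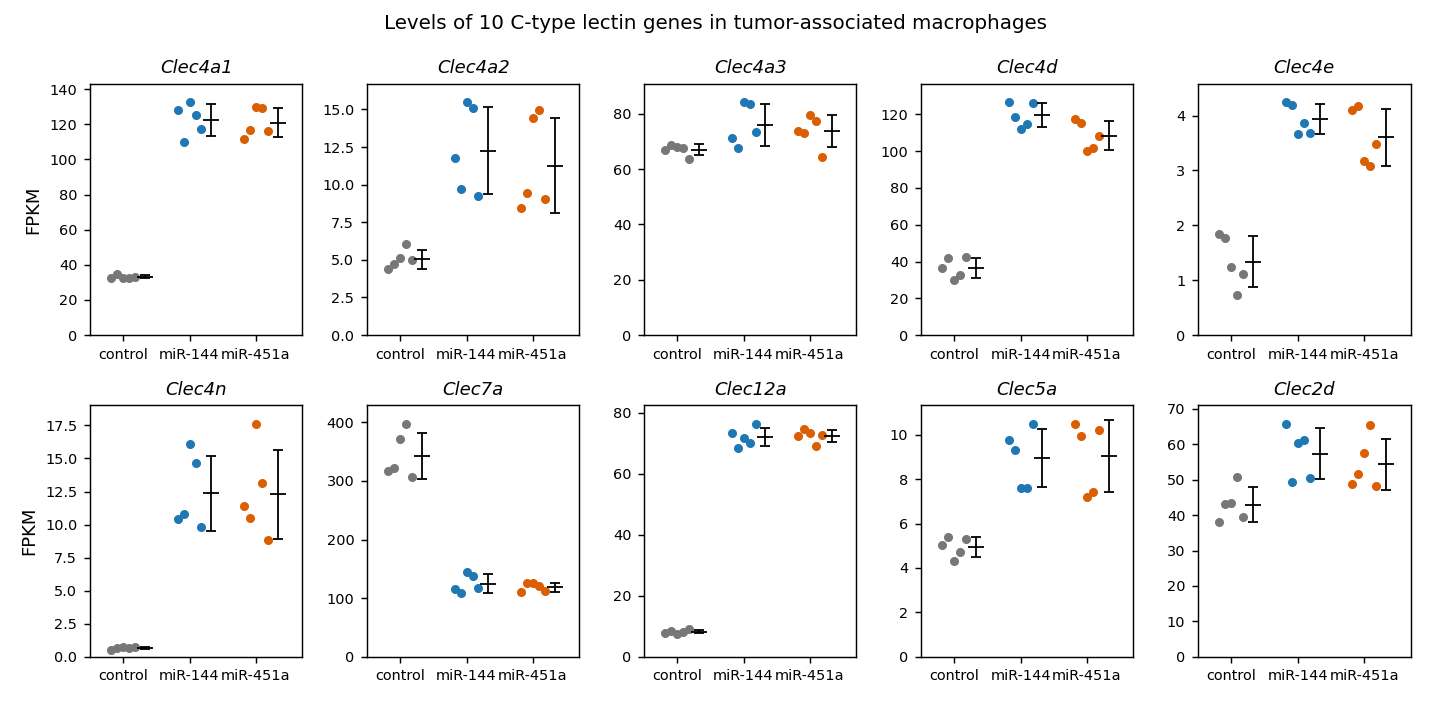
FPKM (vertical axis, from 0, scaled to each gene) of the 10 lectins in every sample, by group, with samples 1 to 5 from left to right; black marks give the mean and SD of 5 samples. Clec7a was at 306 FPKM or more in all control samples and at 145 or less in all others, while Clec4n and Clec12a were near the bottom in control only.

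Of the 3 lectins that use the Fc receptor gamma chain, Clec4d and Clec4e rose, and Clec4n, which was under the minimum in control, was higher in every miRNA sample. Dectin-2, the product of Clec4n, binds mannose-rich sugars of fungi. Clec4n was at 0.529, 0.658, 0.738, 0.650 and 0.752 FPKM in control samples 1 to 5. With miR-144 the levels were 10.4, 10.8, 16.1, 14.7 and 9.85 FPKM, and with miR-451a 11.4, 10.5, 17.6, 13.2 and 8.83 FPKM. The lowest miRNA sample was thus far above the highest control sample. The group means were 0.665 ± 0.0891 FPKM (SD, n = 5) in control, 12.4 ± 2.81 (miR-144) and 12.3 ± 3.35 (miR-451a), which is 18.6 and 18.5 times the control mean. In the fit without a filter, which does not select genes by their level, Clec4n rose by 2.98 ± 0.16 on the log2 scale (SE; limma, adjusted p = 1.96e-09) and 2.96 ± 0.16 (adjusted p = 1.95e-09). Clec4n was the lowest of the 10 in control, and its rise brought it to the level of Clec4a2.

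Clec4d encodes MCL, a partner of Mincle at the cell surface. Its control levels were 36.2, 41.8, 29.8, 32.5 and 42.4 FPKM. They were 127, 119, 112, 115 and 126 FPKM with miR-144 and 117, 115, 100.1, 102 and 108 FPKM with miR-451a. No control sample came near the others. Clec4d rose 3.28-fold with miR-144 (log2 difference 1.70 ± 0.09, limma adjusted p = 1.39e-10) and 2.97-fold with miR-451a (1.55 ± 0.09, adjusted p = 3.59e-10). Mincle, the product of Clec4e, recognizes mycobacterial glycolipids and a protein released from dead cells. Clec4e was at 1.84, 1.77, 1.24, 0.725 and 1.11 FPKM in control. It was at 4.24, 4.19, 3.66, 3.87 and 3.69 FPKM with miR-144 and at 4.11, 4.17, 3.17, 3.09 and 3.48 FPKM with miR-451a. It was the scarcest of the 3 in both miRNA groups, where Clec4n had been so in control, and it rose 2.94-fold and 2.69-fold (log2 differences 1.10 ± 0.12 and 0.99 ± 0.12, limma adjusted p = 8.89e-07 and 2.50e-06). The summed level of the 3 genes was 38.5 ± 5.75 FPKM in control, 136 ± 4.21 (miR-144) and 124 ± 6.48 (miR-451a), and Clec4d made up most of it in every group.

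Clec7a was the exception in direction. Dectin-1, its product, is the receptor for fungal β-glucan and was the most abundant of the 10 lectin mRNAs in control TAMs. Control samples held 316, 322, 372, 397 and 306 FPKM. The miR-144 samples held 116, 108, 145, 139 and 117 FPKM and the miR-451a samples 109.8, 125, 127, 120.1 and 112 FPKM. Even the lowest control sample was more than the highest sample of either miRNA group. The control mean was 2.75 times the miR-144 mean and 2.88 times the miR-451a mean. On the log2 scale the differences were -1.45 ± 0.09 and -1.52 ± 0.09 (SE, n = 5 per group; limma, adjusted p = 1.30e-09 and 7.44e-10).

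The make-up of the family changed with it. The 10 lectins summed to 543 ± 40.3 FPKM in control, 610.0 ± 36.5 (miR-144) and 585 ± 23.5 (miR-451a), so the total moved little beside its parts. Clec7a took 63.0% ± 2.76 (SD) of the sum in control, 20.4% ± 1.59 (miR-144) and 20.3% ± 0.734 (miR-451a). The sum of the other 9 lectins went from 199.96 ± 7.09 FPKM to 485 ± 23.3 and 466 ± 17.4 FPKM, with no overlap between control and either miRNA group. The ratio of Clec7a to the 3 gamma chain partners was 9.17 ± 2.38 in control, 0.920 ± 0.138 (miR-144) and 0.958 ± 0.0857 (miR-451a). The shares of Clec4a1 grew from 6.14% ± 0.502 to 20.1% ± 0.497 and 20.6% ± 0.864, and those of Clec12a from 1.54% ± 0.183 to 11.8% ± 0.802 and 12.4% ± 0.651. In a two-sided exact permutation test of 5 against 5 samples, 9 of 10 shares differed from control with either miRNA, each at the smallest p that test can give (0.00794, adjusted p = 0.0132 over 30 comparisons). The exception was Clec4a3, at 12.4% ± 0.752, 12.4% ± 0.653 and 12.6% ± 0.595 (exact p = 0.889 and 0.619). The shares of a sample have a fixed sum, so a lower share of Clec7a means higher shares for the others together. The 9 results are therefore not separate findings. The 10 shares include that of Clec4n, which passed the minimum only through the miRNA groups.

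**Figure D2:**
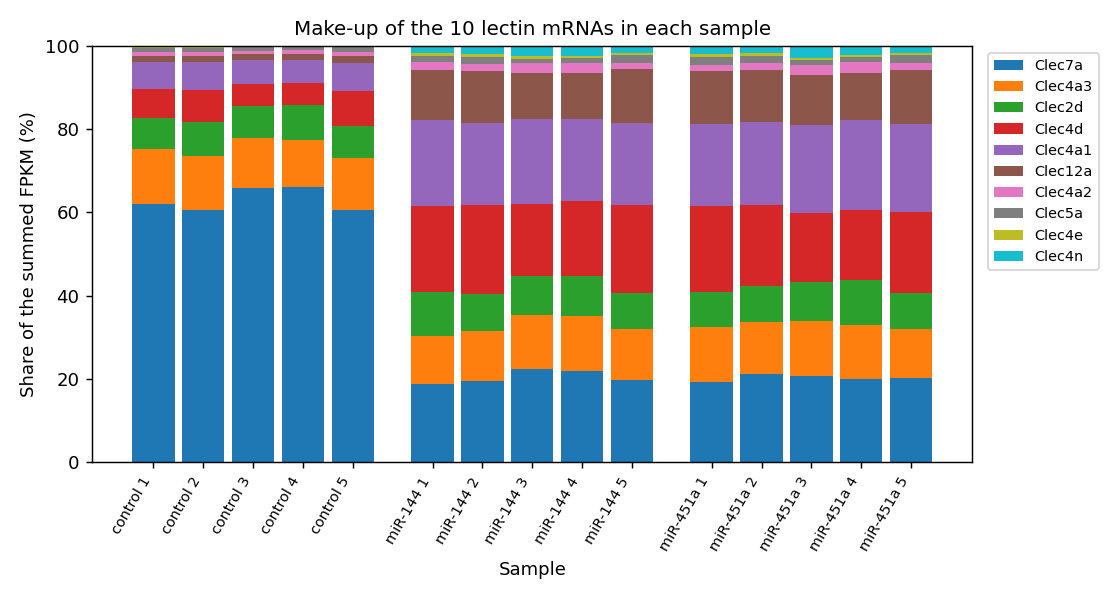
Share of each lectin in the summed FPKM of the 10 genes (vertical axis, percent), 1 bar per sample, by group. Clec7a fills 60.5% to 66.1% of the control bars and 18.7% to 22.4% of the miRNA bars, where Clec4a1, Clec4d and Clec12a take its place.

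Both receptors with an inhibitory motif rose. Clec12a encodes MICL, an inhibitory receptor that recognizes crystals of uric acid. Clec12a was at 7.82, 8.62, 7.64, 8.30 and 9.09 FPKM in control. It reached 73.5, 68.6, 71.7, 69.9 and 76.3 FPKM with miR-144 and 72.3, 74.6, 73.4, 69.0 and 72.6 FPKM with miR-451a. The samples of a group differed little from each other, with a coefficient of variation of 7.12%, 4.20% and 2.88%. Clec12a rose 8.68-fold with miR-144 and 8.73-fold with miR-451a (log2 differences 2.97 ± 0.04 and 2.98 ± 0.04, limma adjusted p = 9.55e-17 and 8.56e-17), and among the 10 lectins these were the lowest adjusted p-values. Clec4a2 encodes DCIR, which dampens dendritic cell and macrophage activation. Its control levels were 4.39, 4.70, 5.13, 6.04 and 4.97 FPKM. With miR-144 they were 11.8, 9.72, 15.5, 15.1 and 9.27 FPKM and with miR-451a 8.43, 9.45, 14.5, 14.98 and 9.01 FPKM. Samples 3 and 4 were the highest in each group, and the groups did not overlap control. Clec4a2 rose 2.43-fold and 2.23-fold (log2 differences 1.11 ± 0.17 and 0.99 ± 0.17, limma adjusted p = 3.46e-05 and 1.01e-04). Of the stretches of 50 bases in its transcripts, 8.76% also occur in other genes and 4.69% in Clec4a4, so a part of its reads could have been placed there. Clec4a4 itself was at 1.17 FPKM or less in every sample. Together the 2 inhibitory receptors went from 13.3 ± 0.883 FPKM to 84.2 ± 3.44 and 83.6 ± 2.75 FPKM.

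Clec4a1 and Clec4a3 are neighbours of Clec4a2 and belong to the DCIR group of genes. Clec4a1 was at 32.6, 34.7, 32.6, 32.8 and 33.3 FPKM in control, the tightest of the lectins there. With miR-144 it was at 128, 109.9, 133, 125 and 117 FPKM and with miR-451a at 112, 117, 129.6, 129 and 116 FPKM. It rose 3.69-fold and 3.64-fold with no overlap (log2 differences 1.85 ± 0.05 and 1.83 ± 0.05, limma adjusted p = 2.14e-13 and 2.23e-13). Clec4a3 was different. Its levels were 66.7, 68.7, 68.0, 67.6 and 63.7 FPKM in control. They were 71.3, 67.6, 84.1, 83.6 and 73.4 FPKM with miR-144 and 73.9, 73.1, 79.7, 77.5 and 64.5 FPKM with miR-451a. Sample 2 of the miR-144 group and sample 5 of the miR-451a group lay within the control range. The log2 difference was 0.18 ± 0.06 with miR-144 (limma, adjusted p = 0.0260) and 0.13 ± 0.06 with miR-451a (adjusted p = 0.0773), close to the median of all genes. The call with miR-144 was lost without control sample 5 (adjusted p = 0.0608), without miR-144 sample 3 (0.0734) or sample 4 (0.0724), with no filter (0.0540) and with median centring (0.610), where the difference with miR-451a changed sign to -0.0099. The difference with miR-451a passed the test without miR-451a sample 5 (adjusted p = 0.0155), after rescaling to TPM (0.22, adjusted p = 0.00756) and with only the 2 groups compared (adjusted p = 0.0411).

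Clec5a encodes MDL-1, a DAP12-coupled receptor of monocytes and macrophages. Its control levels ranged from 4.30 to 5.41 FPKM, those with miR-144 from 7.58 to 10.5 and those with miR-451a from 7.18 to 10.5 FPKM. The ranges were apart, and the means were 4.96 ± 0.452, 8.95 ± 1.30 and 9.04 ± 1.61 FPKM. Clec5a rose by 0.73 ± 0.11 and 0.74 ± 0.11 on the log2 scale (limma, adjusted p = 3.09e-05 and 2.63e-05). Clec2d, the ligand of the NK cell receptor, was at 38.1, 43.0, 43.4, 50.8 and 39.5 FPKM in control. It was at 65.7, 49.2, 60.3, 61.2 and 50.3 FPKM with miR-144 and at 48.7, 51.7, 57.5, 65.4 and 48.3 FPKM with miR-451a. Control sample 4 lay above the lowest samples of both other groups. Clec2d rose by 0.41 ± 0.10 (limma, adjusted p = 0.00251) and 0.33 ± 0.10 (adjusted p = 0.00988), and with median centring the difference was 0.18 with miR-451a and did not pass (adjusted p = 0.132).

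**Figure D3:**
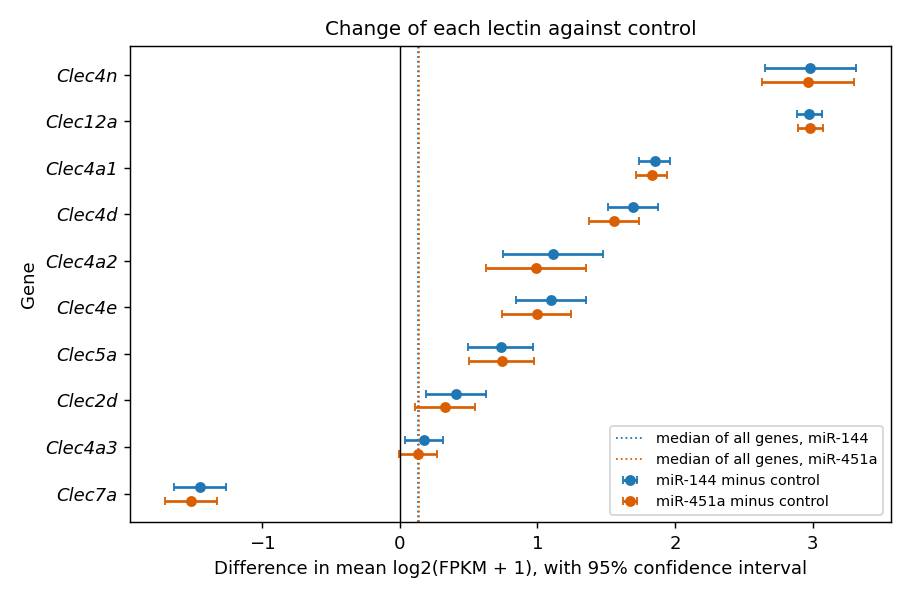
Difference of each lectin from control in mean log2(FPKM + 1) (horizontal axis) with miR-144 and with miR-451a; bars are 95% confidence intervals from limma, n = 5 per group, and dotted lines mark the median of all genes (0.13 and 0.14). Intervals run well clear of the dotted lines for all but Clec4a3 and Clec2d, and Clec7a alone lies below 0.

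The second comparison set miR-451a against miR-144. No lectin differed between these 2 groups (limma, adjusted p of 0.974 or more, and 0 of 10 at an unadjusted p under 0.05), and 0% of the 11419 genes were called, of which 596 had an unadjusted p under 0.05. The widest interval of the differences, miR-451a minus miR-144 on the log2 scale, was that of Clec4a2 (-0.48 to 0.24). For Clec4n it was -0.35 to 0.32. The tightest was that of Clec12a (-0.083 to 0.10), followed by Clec4a1 (-0.13 to 0.092). Clec4d had the largest difference, -0.14 (-0.32 to 0.041), with 117, 115, 100.1, 102 and 108 FPKM against 127, 119, 112, 115 and 126 FPKM. For Clec7a the interval was -0.25 to 0.13, for Clec4e -0.36 to 0.15, for Clec5a -0.23 to 0.24, for Clec2d -0.30 to 0.14 and for Clec4a3 -0.18 to 0.10.

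The order of the levels changed between control and the miRNA groups. In control TAMs Clec7a led with 343 ± 39.7 FPKM, followed by Clec4a3 (67.0 ± 1.97). Then came Clec2d (43.0 ± 4.94), Clec4d and Clec4a1, of which neighbours overlapped. Clec12a, at 8.29 ± 0.590 FPKM, stood below them, and Clec4a2 and Clec5a, which overlapped, below that. Clec4e and Clec4n were last and overlapped, although Clec4e was the higher of the 2 in 5 of 5 samples. With miR-144, Clec7a, Clec4a1 and Clec4d were level at 125 ± 16.0, 123 ± 9.10 and 119.7 ± 6.55 FPKM. With miR-451a the same 3 overlapped at 119 ± 7.61, 121 ± 8.25 and 109 ± 7.67 FPKM. In both miRNA groups Clec4a3 and Clec12a shared the next place and Clec2d came after them, clear of Clec12a in both groups and of Clec4a3 with miR-144, while with miR-451a its highest sample (65.4 FPKM) was above the lowest of Clec4a3 (64.5 FPKM). Clec4n, Clec4a2 and Clec5a then overlapped, and Clec4e was last.

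All 10 genes lie on mouse chromosome 6 (GRCm38, GENCODE M21 annotation), and those from Clec2d to Clec7a belong to the natural killer gene complex. A row of 6 of them stand within 368 kb, in the order Clec4a1 (chr6:122921848-122934619), Clec4a3 (chr6:122952515-122969875), Clec4a2 (chr6:123106428-123143999), Clec4n (chr6:123229843-123247021), Clec4d (chr6:123262111-123275265) and Clec4e (chr6:123281789-123289870). Clec2d (chr6:129180615-129186534), Clec12a (chr6:129342691-129365303) and Clec7a (chr6:129461591-129472779) stand within 292 kb, and Clec5a (chr6:40574894-40585821) lies apart. The annotation types 9 of them as protein coding and Clec7a as a polymorphic pseudogene. Whether position goes with direction was not tested, and only Clec7a of the 10 fell. The 6 lectins of the first row all had higher means in both miRNA groups than in control. Clec12a, which rose, and Clec7a, which fell, are 96.3 kb apart. The 6 coding genes between Clec2d and Clec7a that are no members were at 0.389 FPKM or less in every sample. In the first cluster the same held for Clec4b2 (0.0607 FPKM or less), while Clec4a4 reached 1.17 FPKM and Clec4b1 3.56 FPKM.

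RefSeq start sites on GRCm38.p6 were matched for 9 of the 10 lectins. The short motif GAGGAA, the core bound by PU.1 and other ETS factors of myeloid cells, was found on either strand within 250 bases before a start of 7 of these 9 genes (Clec4a1, Clec4a3, Clec4d, Clec4e, Clec5a, Clec7a and Clec12a), and in 23.3% of 32851 windows of the same length before the starts of all genes. A gene with several starts counts if any window holds the motif. The AP-1 motif TGANTCA was found for Clec12a (6.75% of all windows), the C/EBP motif TTGCNNAA for Clec4e and Clec12a (9.56%) and the ISRE motif GAAANNGAA for Clec2d (7.13%), on either strand. A match is a description of the letters and not a binding site. The windows of Clec7a, the lectin that fell, and of Clec4a1, Clec4d and Clec4e, which rose, are shown because they hold the same motif and no annotated exon. They are written 5′ to 3′ on the strand of the gene, up to the base before the start, with GAGGAA or its complement TTCCTC in capitals.
Clec7a upstream window, chr6:129472786-129473035, minus strand: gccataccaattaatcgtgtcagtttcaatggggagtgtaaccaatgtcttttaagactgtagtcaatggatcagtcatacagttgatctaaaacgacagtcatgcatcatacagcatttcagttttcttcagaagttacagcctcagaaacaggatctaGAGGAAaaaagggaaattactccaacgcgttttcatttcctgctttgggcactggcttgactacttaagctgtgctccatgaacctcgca
Clec4a1 upstream window, chr6:122921598-122921847, plus strand: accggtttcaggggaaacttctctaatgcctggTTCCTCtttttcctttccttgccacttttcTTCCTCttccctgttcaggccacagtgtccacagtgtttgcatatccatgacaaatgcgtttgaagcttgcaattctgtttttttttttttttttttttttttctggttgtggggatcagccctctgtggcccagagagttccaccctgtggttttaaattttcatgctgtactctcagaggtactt
Clec4d upstream window, chr6:123261857-123262106, plus strand: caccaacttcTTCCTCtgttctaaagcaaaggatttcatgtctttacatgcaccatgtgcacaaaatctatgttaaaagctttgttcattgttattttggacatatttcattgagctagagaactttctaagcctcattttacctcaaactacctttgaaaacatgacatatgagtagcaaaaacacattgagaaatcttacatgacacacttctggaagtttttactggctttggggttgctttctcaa
Clec4e upstream window, chr6:123289872-123290121, minus strand: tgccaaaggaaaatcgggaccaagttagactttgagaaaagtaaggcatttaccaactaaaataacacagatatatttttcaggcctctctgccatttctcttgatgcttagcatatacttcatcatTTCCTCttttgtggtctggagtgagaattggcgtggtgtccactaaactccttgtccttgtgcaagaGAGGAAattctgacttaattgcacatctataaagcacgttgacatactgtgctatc

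The genes that carry the signal of these receptors were looked at as lists, whose counts stand beside 47.1% of all genes called higher and 20.1% lower with miR-144, and 48.1% higher and 20.3% lower with miR-451a. Of the 3 adaptors, 2 rose with miR-144 and 3 with miR-451a (median difference 0.23 (miR-144) and 0.31 (miR-451a)). Fcer1g, the gamma chain of Clec4n, Clec4d and Clec4e, rose from 388 ± 24.9 FPKM in control to 567 ± 19.2 (miR-144) and 556 ± 15.8 (miR-451a) (limma, adjusted p = 2.16e-08 and 3.67e-08). Tyrobp, which encodes the DAP12 that Clec5a uses, was at 952, 1112 and 1083 FPKM in the 3 groups (adjusted p = 0.00130 and 0.00506), above every lectin. Hcst, a related adaptor, was at 5.10, 5.91 and 6.58 FPKM (adjusted p = 0.140 and 0.0176). Its call with miR-451a was lost with median centring (adjusted p = 0.196) and quantile normalization (adjusted p = 0.206), and with miR-144 it passed after rescaling to TPM (adjusted p = 0.0418). Against the median of all genes Fcer1g had the clearer rise, since the differences of Tyrobp (0.23 and 0.19) were near it and did not pass with median centring (adjusted p = 0.152 and 0.518), which left Fcer1g as the only adaptor called under that setting.

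Among the 10 kinases and effectors, 7 rose and 2 fell in either comparison (median difference 0.52 (miR-144) and 0.46 (miR-451a)), beside 47.1% and 48.1% of all genes higher and 20.1% and 20.3% lower. Syk itself did not pass the test and was at 57.7, 60.7 and 59.8 FPKM (adjusted p = 0.181 and 0.328), although it passed after rescaling to TPM (adjusted p = 0.0160 and 0.0206). The Src family kinases that phosphorylate the tyrosine motifs went in both directions. Lyn rose from 20.2 ± 0.293 FPKM in control to 62.4 ± 4.03 (miR-144) and 60.7 ± 2.22 (miR-451a), and Fgr was at 1.87, 3.12 and 3.13 FPKM. Src fell from 9.04 ± 1.81 FPKM in control to 3.07 ± 0.273 (miR-144) and 3.06 ± 0.242 (miR-451a) (adjusted p = 3.61e-08 and 3.32e-08). Prkcd, the kinase between Syk and CARD9, also fell, from 150.3 ± 4.98 FPKM in control to 88.2 ± 3.85 (miR-144) and 86.6 ± 4.67 (miR-451a) (adjusted p = 2.74e-10 and 1.74e-10). Plcg2, a phospholipase below Syk, rose from 26.0 ± 1.52 FPKM in control to 54.7 ± 4.86 (miR-144) and 55.6 ± 5.70 (miR-451a). The adaptor Lcp2 also rose, with 12.1, 25.1 and 25.9 FPKM. Vav1, Vav3 and Btk rose less, to 68.0, 10.8 and 28.1 FPKM with miR-144 from 38.8, 7.94 and 19.4 in control, and their adjusted p-values (limma) lay between 2.05e-10 and 5.23e-06 over both comparisons.

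Of the 4 genes of the CARD9 complex, 3 rose and 1 fell with either miRNA (median difference 0.41 (miR-144) and 0.43 (miR-451a)), where 47.1% and 48.1% of all genes were higher. Card9 was at 21.6, 30.1 and 30.6 FPKM (adjusted p = 2.39e-06 and 1.22e-06) and Bcl10 at 10.9, 15.8 and 15.8 FPKM (adjusted p = 2.93e-09 and 2.70e-09). Trim62, a ubiquitin ligase that acts on CARD9, was at 1.34, 1.998 and 2.04 FPKM. Malt1, the protease of the complex, fell from 2.15 ± 0.268 FPKM in control to 1.12 ± 0.190 (miR-144) and 1.04 ± 0.137 (miR-451a) (adjusted p = 4.85e-06 and 1.83e-06). Of the 3 phosphatases that inhibitory lectins recruit, 3 rose with miR-144 and 2 with miR-451a (median difference 0.91 (miR-144) and 0.91 (miR-451a)). Ptpn6, encoding SHP-1, rose from 53.1 ± 2.61 FPKM in control to 124 ± 11.6 (miR-144) and 123 ± 8.71 (miR-451a) (adjusted p = 2.57e-10 and 2.59e-10). Inpp5d, encoding SHIP-1, was at 23.2, 44.6 and 44.5 FPKM (adjusted p = 1.92e-12 and 1.88e-12). Ptpn11, encoding SHP-2, was at 15.2, 16.4 and 15.9 FPKM (adjusted p = 0.00698 and 0.0749), a difference of 0.11 and 0.065 that was below the median shift of all genes and changed sign with median centring (-0.028 and -0.079). Its call thus depended on the scaling. With miR-144 it was lost with median centring (adjusted p = 0.447) and quantile normalization (adjusted p = 0.436). With miR-451a Ptpn11 was called lower with median centring (adjusted p = 0.0322) and higher after rescaling to TPM (adjusted p = 0.00140).

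**Figure D4:**
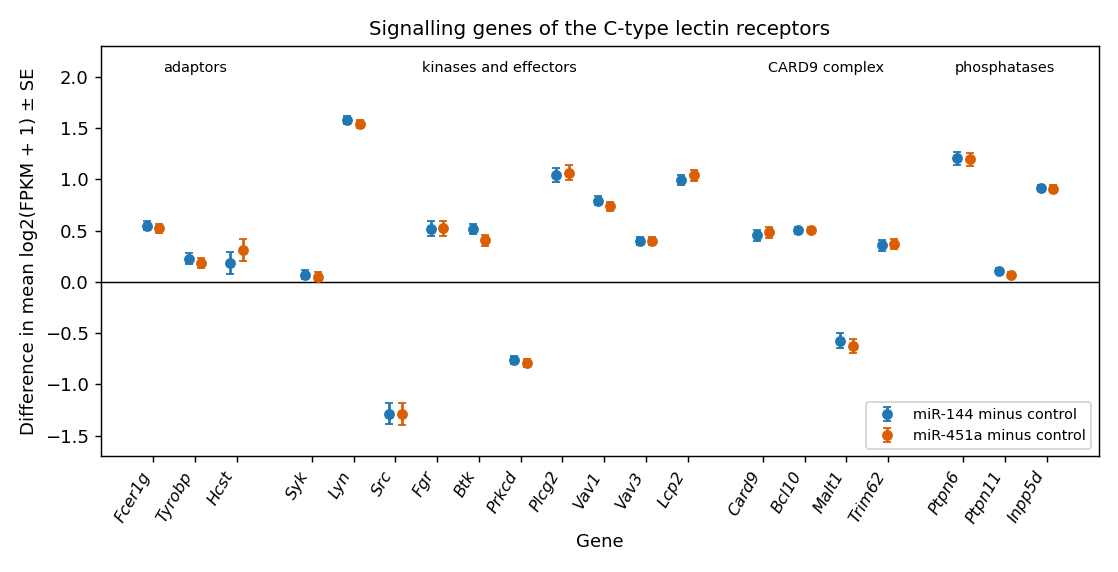
Difference from control in mean log2(FPKM + 1) (vertical axis, with SE from limma, n = 5 per group) of the 20 genes that carry the signal of C-type lectin receptors. Lyn is highest near 1.58 and 1.54, Src is lowest near -1.29, and Syk and Ptpn11 lie close to 0.

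Of 12 known targets of the CARD9 pathway, 5 passed the minimum, 5 were above 0 but under 1 FPKM on average, and Il12b and Csf2 were listed at 0 in all 15 samples. Of the 5, Il10, Il1b and Cxcl2 were under 1 FPKM in control and passed the minimum only through the miRNA groups, so no count of rises is given. Tnf rose from 1.62 ± 0.397 FPKM in control to 7.39 ± 1.20 (miR-144) and 6.41 ± 1.09 (miR-451a) (adjusted p = 1.30e-08 and 4.64e-08, limma). Il10, an anti-inflammatory cytokine, was at 0.731, 4.07 and 3.93 FPKM and Il1b at 0.519, 2.85 and 2.60 FPKM, and both were called higher in the fit without a filter (adjusted p between 2.01e-10 and 3.41e-08 over both comparisons). Egr2 fell from 28.2 ± 12.0 FPKM in control to 1.94 ± 0.260 (miR-144) and 1.34 ± 0.493 (miR-451a) (adjusted p = 1.01e-06 and 2.86e-07), where control sample 5, at 6.93 FPKM, stood far below the other 4 control samples (31.1 FPKM and above). Il6 was under 0.1 FPKM on average in every group, and in the fit without a filter it was lower with miR-144 (adjusted p = 0.0326) and did not pass with miR-451a (adjusted p = 0.104).

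Among the ligands and partners, 3 of 4 tested genes rose with either miRNA, beside 47.1% and 48.1% of all genes. Tlr2, which acts together with Dectin-1, rose from 7.67 ± 0.657 FPKM in control to 60.4 ± 1.58 (miR-144) and 61.0 ± 2.84 (miR-451a) (adjusted p = 5.42e-16 and 4.87e-16, limma), the opposite direction to Clec7a. Lgals9, a galectin that Dectin-1 binds, was at 37.0, 69.0 and 68.4 FPKM (adjusted p = 1.37e-09 and 1.55e-09). Cd37, a tetraspanin that holds Dectin-1 at the membrane, was at 26.5, 34.7 and 35.9 FPKM (adjusted p = 3.37e-06 and 8.44e-07). Of 8 transcription factors of myeloid lectin genes, 4 rose and 2 fell with either miRNA, which is near the share of all genes (47.1% and 48.1% higher, 20.1% and 20.3% lower). Nfatc2 was at 1.63, 9.64 and 10.3 FPKM (adjusted p = 3.09e-13 and 1.82e-13), Rela at 22.5, 31.1 and 30.8 FPKM (adjusted p = 1.22e-05 and 1.46e-05) and Irf8 at 16.5, 27.1 and 27.2 FPKM (adjusted p = 0.0103 and 0.00903). Cebpb was at 61.5, 28.3 and 27.0 FPKM (adjusted p = 6.54e-07 and 3.31e-07) and Cebpa at 66.9, 37.6 and 39.4 FPKM (adjusted p = 5.33e-08 and 1.39e-07), both lower than control. Spi1, which encodes PU.1, was at 96.5, 103 and 104 FPKM and did not pass the test (adjusted p = 0.166 and 0.0826).

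Of the 49 other C-type lectins on the list, 8 were listed at 0 throughout, 30 were under 1 FPKM on average and 11 were tested. Of these 11, 5 rose and 3 fell with miR-144, and 4 rose and 3 fell with miR-451a (median difference 0.32 (miR-144) and 0.32 (miR-451a)). These counts are also near the share of all genes, 47.1% and 48.1% higher and 20.1% and 20.3% lower. Mgl2, a galactose-binding lectin used as a mark of alternatively activated macrophages, fell from 45.7 ± 4.74 FPKM in control to 2.58 ± 0.731 (miR-144) and 2.99 ± 0.810 (miR-451a) (adjusted p = 1.02e-11 and 1.62e-11, limma). Its close relative Clec10a went the other way, with 9.35, 24.3 and 25.9 FPKM (adjusted p = 2.13e-09 and 9.64e-10). Whether reads of these similar genes were split between them by the counting was not tested. Mrc1, the mannose receptor, fell from 135 ± 6.53 FPKM in control to 75.9 ± 22.4 (miR-144) and 85.0 ± 21.2 (miR-451a) (adjusted p = 7.77e-04 and 0.00399), and Ly75, which encodes DEC-205, fell from 6.49 ± 1.18 FPKM in control to 1.77 ± 0.154 (miR-144) and 1.72 ± 0.148 (miR-451a) (adjusted p = 1.35e-09 and 1.02e-09). Cd302 rose from 20.01 ± 0.909 FPKM in control to 37.0 ± 1.48 (miR-144) and 35.7 ± 2.32 (miR-451a) (adjusted p = 2.05e-10 and 4.08e-10). Clec2i, a relative of Clec2d with a mean under 1 FPKM, was at 0.267, 0.899 and 1.21 FPKM and was tested only in the fit without a filter (adjusted p = 1.38e-04 and 5.13e-06).

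Samples of 1 group differed from each other in a shared way, which was seen after the values were known and is given as a description. Samples 3 and 4 were the 2 highest for Clec4a2 in all 3 groups and for Clec4n and Clec4a3 in both miRNA groups. They were the 2 lowest for Clec4d and Clec5a in all 3 groups. Over all genes, samples 3 and 4 were the highest in all 3 groups for 1.23% and the lowest for 3.33%, and in both miRNA groups the highest for 4.79% and the lowest for 7.19%. On the log2 scale the miR-451a samples 3 and 4 were 0.37 and 0.42 above their group mean for Clec4a2, and 0.28 and 0.24 below it for Clec5a. The labels name no batch, date or litter. Over the deviations of the 15 samples from their group means, Clec4a2 went against Clec5a (Pearson r = -0.91) and with Clec4n (r = 0.83), and Clec4d with Clec5a (r = 0.73). These r are descriptions with no test, and the points share libraries and their normalization. Among the 6 lectins Clec4a1, Clec4a2, Clec4a3, Clec4n, Clec7a and Clec2d all 15 pairs had a positive r (0.48 to 0.84), and 23 of the 24 pairs with the other 4 lectins had a negative one. This split of the lectins was made from the same r, so these counts follow from the choice. Without samples 3 and 4, 22 of the 24 pairs were positive and only 12 of the 15 pairs within the 6 lectins were (-0.16 to 0.92, median 0.30 against 0.71 with them). In the 9 samples left, the first pattern was thus weaker and the second was not seen. The number of members called with miR-144, Clec4n included, was 9 of 10 without samples 3 and 4, where Clec4a3 no longer passed, and with miR-451a it remained 9. Of all 11419 genes, 4551 were then called higher and 2008 lower with miR-144, and 4750 and 2079 with miR-451a.

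**Figure D5:**
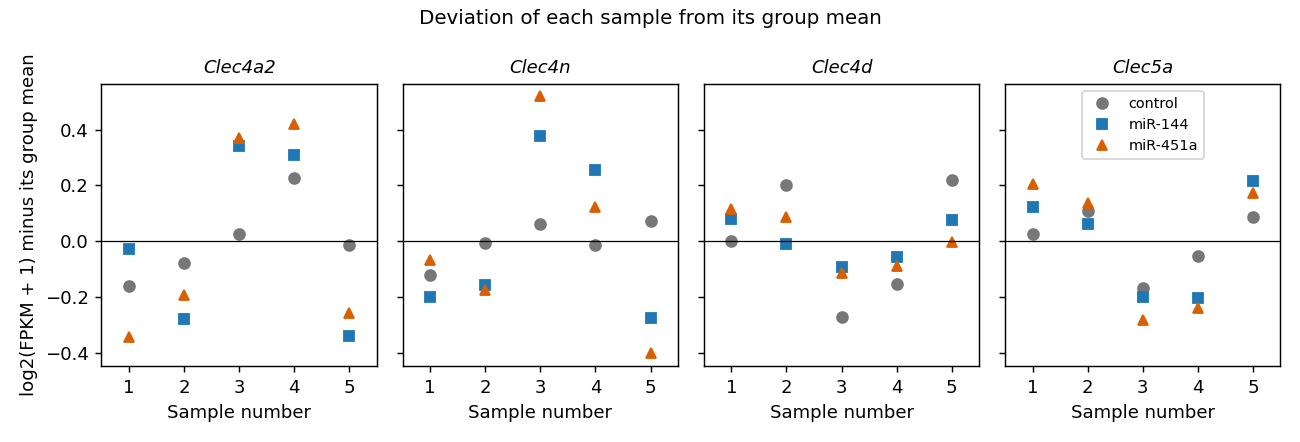
Deviation of log2(FPKM + 1) from the group mean (vertical axis) against the sample number (horizontal axis) for Clec4a2, Clec4n, Clec4d and Clec5a, in control, miR-144 and miR-451a samples. Samples 3 and 4 lie above the others of their group for Clec4a2 and below them for Clec4d and Clec5a, in all 3 groups; Clec4n shows the first pattern in both miRNA groups.

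The genes closest to each lectin in these deviations were taken among the 6638 genes whose mean reached 5 FPKM, over the 15 samples. Clec5a was closest to Spp1 (r = 0.97), Slc5a3 (r = 0.97) and E2f2 (r = 0.96). For Clec4a2 they were Wfdc17 (r = 0.95), Atp6v0d2 (r = 0.94) and Plau (r = 0.93), and for Clec4n Ifnar2 (r = 0.92), Tlr1 (r = 0.91) and Osbpl11 (r = 0.91). Clec4a1 stood nearest to Lst1 (r = 0.93), Gmfg (r = 0.91) and Gabarapl1 (r = 0.89), and Clec4a3 to Selenop (r = 0.92), Klhl9 (r = 0.92) and Mmp27 (r = 0.92). Clec7a went with Prcp (r = 0.93), Itgax (r = 0.92) and Fgl2 (r = 0.90). Clec4d was nearest to Ms4a6b (r = 0.94), Igf1 (r = 0.91) and Sh3bp5 (r = 0.90), and Clec4e to Hnrnpm (r = 0.90), Vps33a (r = 0.87) and Rpl21-ps15 (r = 0.84). The closest genes of Clec12a were Ccdc107 (r = 0.89), Rnf135 (r = 0.87) and Akr1b8 (r = 0.84). Those of Clec2d, mt-Cytb (r = 0.94), mt-Atp8 (r = 0.94) and mt-Nd3 (r = 0.93), are all encoded in the mitochondrial genome.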

How the data were processed

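TAMs from 15 samples of tumor-bearing mice were measured by RNA sequencing, and the group and number of each sample were taken from its labels. Total RNA was extracted with Trizol and sequenced on an Illumina HiSeq instrument. The submitters' processing notes name FastQC 0.11.2, STAR and StringTie without their roles, and the genome build and annotation are not given in the sources used here. The authors deposited 1 table of FPKM per gene and sample, already divided by transcript length and mapped fragments, and no counts were used. Because 38.6% to 52.3% of low values per sample lay on whole steps, reads were not recovered from FPKM.

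Genes whose mean over the 15 samples reached 1 FPKM were tested on log2(FPKM + 1) with limma 3.58.1 in R 4.3.3, in 1 fit of the 3 groups with a trended variance, two-sided, and p-values were adjusted by Benjamini-Hochberg over 11419 genes. On simulated data made from these samples, with 100 genes changed by 0.5 and 100 by 1 on the log2 scale between miR-144 and control, 81 and 95 were called over 11419 genes, with 9 false calls. Shares of the summed FPKM were compared by exact permutation over samples. Depth was estimated from genes with a single transcript of at least 1000 bases, and it limits precision through counting error as well as through the 5 samples a group.

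The text names all 10 lectins, every gene of the adaptor, kinase, CARD9 and phosphatase lists with a mean of at least 1 FPKM except 2 genes that are not reported here and were left out of the counts, and of each other list up to 3 called genes with the largest rise and up to 3 with the largest fall. Similar genes are the 3 with the highest Pearson r per lectin. Genes under the minimum were tested in the fit without a filter. The lectins, lists and tests were chosen with earlier results of these data known. Of the gene identifiers, 55154 of 55335 occur in GENCODE M21, and RefSeq tables gave start sites for 9 of the 10 lectins. The alternatives were a minimum of 5 FPKM or none, a pseudocount of 0.1, TPM in place of FPKM, centring on the sample median, quantile normalization, a block for the sample number, limma without a trend, only the 2 groups compared, a log2 fold change of at least 1, and each sample left out in turn; leaving out samples 3 and 4 of every group was added after seeing the data.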

Additional observations from a re-analysis of the deposited data

Results flagged for a closer look

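In groups of 5, a sample was marked where its gap to the nearest other sample, divided by the range of the group, exceeded 0.71, Dixon's critical value. This was so in 8 of 147 groups of the genes named, against about 7.35 expected if chance marks 1 in 20, and in 0 of the 30 groups of the 10 lectins. Egr2 was at 6.93 FPKM in control sample 5, with the next control sample at 31.1 FPKM. Irf8 was marked in every group: 24.7 FPKM in control sample 2 (next 14.9), 42.4 FPKM in miR-144 sample 4 (next 25.5) and 41.4 FPKM in miR-451a sample 4 (next 25.1). Of the signalling genes, Btk was low in miR-144 sample 3 (26.3 FPKM, next 28.3), Card9 low in control sample 4 (19.9 FPKM, next 21.6) and Trim62 high in control sample 5 (1.51 FPKM, next 1.33). Nfatc2 was high in miR-451a sample 3 (11.2 FPKM, next 10.1). No explanation of these values was tested.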

How the results depend on the processing

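Clec4n, Clec12a, Clec4a1, Clec4d, Clec4a2, Clec5a and Clec7a kept their direction and their call against control under each alternative other than a log2 fold change of at least 1, and so did Clec4e, which a minimum mean of 5 FPKM left out. At that fold change Clec5a lost both calls, and Clec4a2 and Clec4e lost theirs with miR-451a. The members called with miR-144, Clec4n included, numbered 10, and 9 or 10 under the alternatives other than a log2 fold change of at least 1, which left 7. Of all 11419 genes, 47.1% were called higher and 20.1% lower with miR-144 in the main fit, and 888 genes were called at that fold change. With miR-451a there were 9, Clec4n included, 8 to 10 under the alternatives, and 5 at a log2 fold change of at least 1. Beside them, 48.1% of all genes were called higher and 20.3% lower with miR-451a, and 944 genes at that fold change. Of the 48 tested genes of the pathway lists, those called went from 40 to 14 with miR-144 and from 39 to 16 with miR-451a under that setting, which by its construction keeps only large changes. The 48 include Il10, Il1b and Cxcl2, which passed the minimum only through the miRNA groups. The members called between the miRNAs remained 0 under each alternative. For Clec4a3 with miR-451a, median centring gave -0.0099. Between the miRNAs, where no lectin was called, the sign of 5 small differences changed. Median centring gave -0.0020 for Clec12a and -0.0026 for Clec5a, quantile normalization gave -0.0014 for Clec5a, and leaving out 1 sample gave -0.060 to 0.0072 for Clec4a1, -0.081 to 0.0060 for Clec4a3, -0.15 to 0.084 for Clec4n, -0.0085 to 0.029 for Clec12a and -0.044 to 0.078 for Clec5a; the cause was not tested. The sample numbers were not taken to pair the samples, since the labels name no shared litter, batch or day and only 8 of 15 same-numbered pairs had deviations correlated over 0.1 (r of -0.15 to 0.26), where every pair was required. That 8 of 15 samples correlated best with one of their own number is a hint from the data, not from the design. With the number as a replicate block, 10 lectins were called with either miRNA, Clec4n included, and Clec4a3 with miR-451a too (limma, adjusted p = 0.0318). Of the same 48 genes of the pathway lists, 44 and 43 were called. The blocked fit called 5408 of all 11419 genes higher and 2303 lower with miR-144, and 5511 and 2348 with miR-451a. The paired sign-flip test of the shares called 0 of 10 in either comparison with control, because 5 pairs allow no p below 0.0625. Depth and 5 samples a group limit the precision, and how much at each level was not compared.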

Other observations

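Some C-type lectins far below the level of the 10 described also differed between groups in the fit without a filter, and they were picked after their values were seen. Olr1, the scavenger receptor LOX-1, was at 0.393 ± 0.123 FPKM (SD, n = 5) in control, at 0.00636 FPKM with miR-144, and was listed at 0 in all miR-451a samples (limma, adjusted p = 1.01e-06 and 7.85e-07). Asgr2, a chain of the asialoglycoprotein receptor, had means of 0.176, 0.891 and 0.925 FPKM in control, miR-144 and miR-451a (adjusted p = 5.51e-07 and 3.54e-07). Cd69, an early activation marker of lymphocytes that lies between Clec2d and Clec12a, had means of 0.0226, 0.250 and 0.273 FPKM (adjusted p = 1.57e-06 and 5.99e-07). At such levels an FPKM rests on few fragments, so the sizes of these differences are poorly fixed.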
